A study of Mus musculus with 4 samples.

Results

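The enzymes that turn arachidonic acid into prostaglandins and leukotrienes, and the receptor Ptgdr2, were examined in the mouse cell lines TS1 and TS2. The members were 10 genes chosen by name: Ptgs1, Ptgs2, Ptges, Hpgds and Tbxas1 of the prostanoid branch, Alox5, Alox5ap, Lta4h and Ltc4s of the leukotriene branch, and Ptgdr2. Of these 10, 9 had a probe set that named only that gene, out of 19938 genes measured in all. Ptgs1 was not named by a single-gene probe set and is not analysed here. Each of the 9 had 1 such probe set, no filter on low values was applied, and all 9 were tested.

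Both lines are labelled as derived from CD4-positive T lymphocytes, and both were grown without further treatment in Iscove-Dulbecco's medium with murine interleukin-9 (IL-9), a growth factor of T cells and mast cells. Total RNA of biological duplicates A and B of each line was hybridised to Affymetrix mouse gene arrays, 1 array per duplicate, which gave TS1 A, TS1 B, TS2 A and TS2 B. The labels name no genetic change, do not say whether a line is a single clone, and include no normal T cells for comparison. Values are log2 of normalized intensities, where 1 unit is a 2-fold step, and differences are TS2 minus TS1 with n = 2 arrays per line. In bulk RNA, fewer cells with a transcript and less transcript per cell cannot be told apart.

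Arachidonic acid is freed from membrane phospholipids by phospholipases A2. Cyclooxygenases convert it to prostaglandin H2, from which terminal synthases make prostaglandin D2 (Hpgds), prostaglandin E2 (Ptges) and thromboxane (Tbxas1). In the other branch 5-lipoxygenase (Alox5), helped by the membrane protein FLAP (Alox5ap), makes leukotriene A4, which Lta4h hydrolyses to leukotriene B4 and Ltc4s joins to glutathione to give leukotriene C4. Mast cells, basophils and T helper 2 cells are known for parts of this pathway, and prostaglandin D2 acts on T helper 2 cells through Ptgdr2, also called CRTH2.

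The arrays gave 1 difference in each branch that passed the test described below. Hpgds was 21.4-fold higher in TS2, and Ltc4s was 2.75-fold higher in TS1. The other 7 measured members did not pass the test, which was an adjusted p under 0.05 in limma with Benjamini-Hochberg adjustment over all 19938 genes. The count was thus 2 of 9 members, 1 in each direction, against 13.5% of all genes. By direction the shares of all genes were 5.05% with more in TS2 and 8.45% with more in TS1. The median difference of the 9 members was 0.14, and that of all genes was 0.013. Permuting the 4 arrays exactly would allow no two-sided p below 0.333, so the calls rest on the variance that limma shares between genes. Both calls held with each array left out in turn, where 1 line keeps a single array and the spread comes from the pair of the other line and the variance shared between genes.

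The regions before the transcript starts of the 2 called members are shown because the lines differed at these genes. They come from RefSeq's annotation of GRCm38.p6. The Hpgds region is chr6:65144731-65144980 and the Ltc4s region is chr11:50238533-50238782, both on the minus strand, each 250 bases long and ending 1 base before the start. The Hpgds stretch lies inside the annotated gene, whose outer end is beyond it, so RefSeq's start for this window is not the outermost one. Capitals mark the only match found among 8 short motifs.
Hpgds: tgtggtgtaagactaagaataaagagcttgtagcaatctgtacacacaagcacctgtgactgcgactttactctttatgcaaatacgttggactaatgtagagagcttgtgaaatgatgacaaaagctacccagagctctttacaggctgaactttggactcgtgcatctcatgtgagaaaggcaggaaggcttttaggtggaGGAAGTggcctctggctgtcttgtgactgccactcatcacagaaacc
Ltc4s: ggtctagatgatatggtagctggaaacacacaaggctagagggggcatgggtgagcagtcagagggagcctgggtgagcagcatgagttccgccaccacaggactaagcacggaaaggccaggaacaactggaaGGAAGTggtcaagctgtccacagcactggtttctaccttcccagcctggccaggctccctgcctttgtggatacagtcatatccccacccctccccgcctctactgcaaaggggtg
Both strands were searched. The letters AGATAA stood for the factors of the Gata family, and TTCNNNGAA was the motif of the STAT proteins. The palindrome CACGTG stood for the E-box, and GGAAGT was the motif of factors of the ETS family. A site of the cyclic AMP response was searched as TGACG, and one of AP-1 proteins as TGANTCA. The last pair was TATAAA for the core promoter element of that name and CGCG for stretches rich in CpG. In both regions the match was GGAAGT on the gene's own strand, its first base at position -47 in Hpgds and -116 in Ltc4s, counted from the transcript start. That motif was present in 23.8% of 32851 promoter windows of 300 bases, and AGATAA in 11.2%. Of the 9 members with a promoter window, Ptgs1 among them and Alox5ap not, 3 held GGAAGT and 0 held AGATAA. A match describes letters only.

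Hpgds encodes hematopoietic prostaglandin D synthase, the cytosolic enzyme that makes prostaglandin D2 in mast cells and T helper 2 cells. Its log2 intensity was 5.13 on TS1 A and 5.24 on TS1 B, and 9.82 on TS2 A and 9.39 on TS2 B. Both TS2 arrays lay far above both TS1 arrays, and on the linear scale the values were 35.1, 37.9, 906 and 669.7. The difference of the means, 5.19 ± 0.079 (SD, n = 2) and 9.61 ± 0.31 (SD, n = 2), was 4.42 (SE 0.17, 95% interval 3.99 to 4.84, adjusted p = 0.000405 in limma). By size of difference Hpgds ranked 55th of 19938 genes. Its TS1 values lay below the array medians, which ran from 6.47 to 6.53. Signal over background was not examined, so the size of the fold, and with it the rank, is uncertain.

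**Figure D1:**
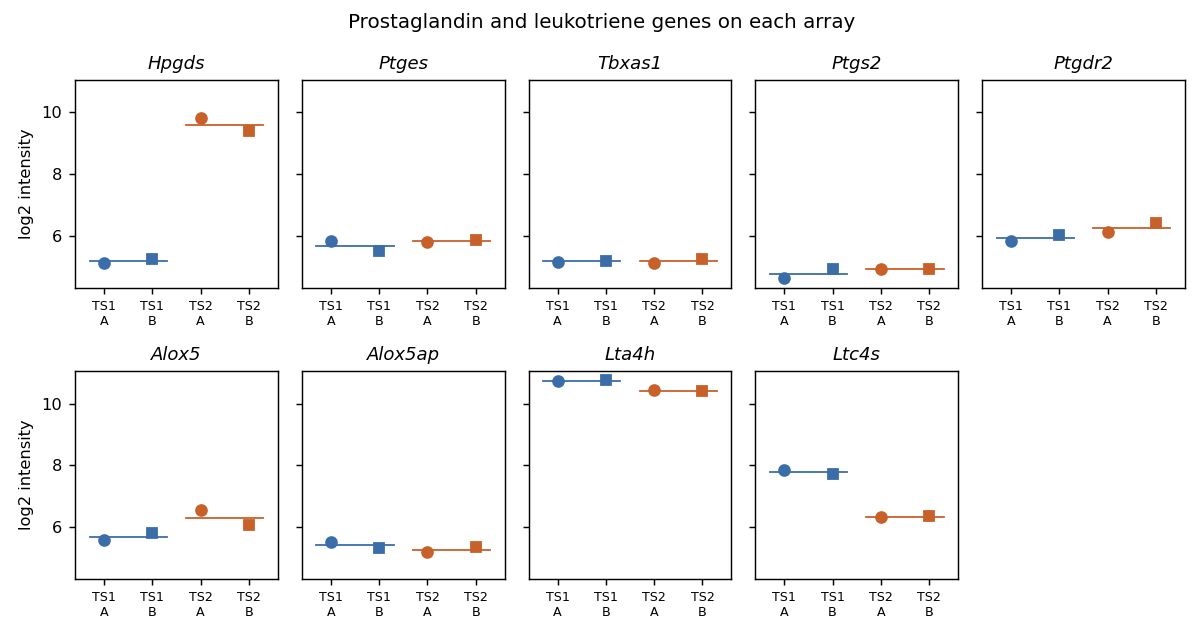
Log2 intensity (vertical axis, shared by all panels) of the 9 measured members on each array (horizontal axis). Circles are duplicate A, squares are duplicate B, and lines are the mean of a line's 2 arrays. Hpgds lay near 5.2 in TS1 and 9.6 in TS2, Ltc4s near 7.8 and 6.3, and the other 7 genes lay at similar heights in both lines.

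The other 3 measured prostanoid enzymes among the members lay low on every array. Ptgs2, the inducible cyclooxygenase, had a log2 intensity of 4.63 and 4.91 on the TS1 arrays and 4.91 on each TS2 array. Ptges, the inducible prostaglandin E synthase, had 5.83 and 5.50 in TS1 and 5.80 and 5.85 in TS2. Tbxas1, thromboxane A synthase, had 5.16 and 5.19 in TS1 and 5.12 and 5.26 in TS2. The arrays of the lines overlapped for each of these 3 genes. The differences were 0.14 for Ptgs2 (95% interval -0.18 to 0.46, adjusted p = 0.532), 0.16 for Ptges (-0.18 to 0.51, adjusted p = 0.496) and 0.018 for Tbxas1 (-0.23 to 0.26, adjusted p = 0.936) in limma. Array medians ran from 6.47 to 6.53, above all 12 of these values. Signal over background was not examined, and probe sets differ in brightness for the same amount of RNA, so a low value does not show that a transcript was absent.

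Ptgdr2, the prostaglandin D2 receptor of T helper 2 cells, is the only receptor among the members. Its log2 intensity was 5.84 and 6.03 in TS1 and 6.11 and 6.41 in TS2. Both TS2 arrays lay above both TS1 arrays, by a margin smaller than the gap between the duplicates. Its difference of 0.32 (SE 0.14, 95% interval -0.040 to 0.68) did not pass the test (adjusted p = 0.213 in limma).

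Ltc4s encodes leukotriene C4 synthase, which makes the parent of the cysteinyl leukotrienes. Its log2 intensity was 7.86 on TS1 A and 7.73 on TS1 B, and 6.31 on TS2 A and 6.35 on TS2 B. Here the TS1 arrays were the higher pair, with linear values of 232 and 212 against 79.6 and 81.6. The TS1 mean was 7.79 ± 0.094 (SD, n = 2) and the TS2 mean 6.33 ± 0.026 (SD, n = 2). The difference was -1.46 (SE 0.095, 95% interval -1.70 to -1.22, adjusted p = 0.00179 in limma). By size of difference Ltc4s ranked 695th of 19938 genes. Tested against a 2-fold minimum with limma's treat, Ltc4s did not pass (adjusted p = 0.115).

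Lta4h, the hydrolase that makes leukotriene B4, lay well above the array medians in both lines. Its log2 intensity was 10.73 and 10.75 in TS1 and 10.44 and 10.40 in TS2. The TS1 arrays were higher without overlap, and the difference was -0.32 (SE 0.086, 95% interval -0.54 to -0.10). It did not pass the test (adjusted p = 0.0742 in limma). It passed with a prior variance that follows intensity (adjusted p = 0.0478) and with the dimmest 50% of probe sets left out (adjusted p = 0.0461).

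The pair that starts leukotriene synthesis lay near or below the array medians. Alox5, 5-lipoxygenase, had a log2 intensity of 5.59 and 5.79 in TS1 and 6.54 and 6.06 in TS2. The TS2 arrays were higher without overlap, but they lay 0.48 apart from each other. The difference of 0.61 (SE 0.18, 95% interval 0.14 to 1.08) did not pass (adjusted p = 0.100 in limma). Alox5ap, whose protein presents arachidonic acid to 5-lipoxygenase, had 5.51 and 5.31 in TS1 and 5.19 and 5.35 in TS2, and these arrays overlapped. Its difference was -0.14 (95% interval -0.44 to 0.16, adjusted p = 0.499 in limma).

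**Figure D2:**
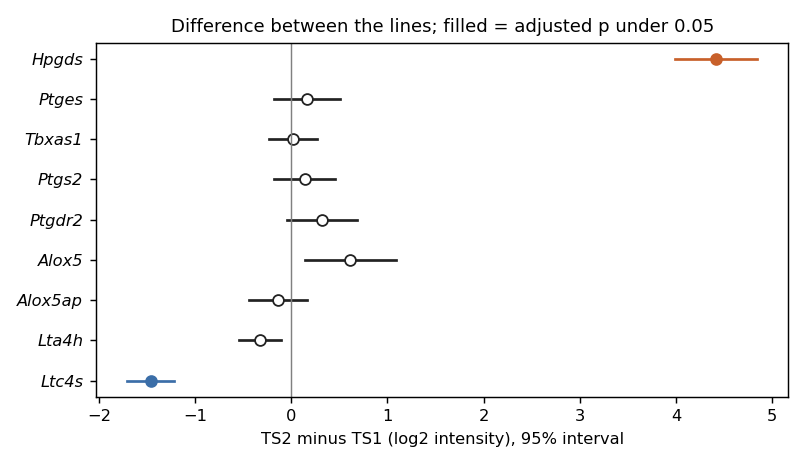
Difference TS2 minus TS1 in log2 intensity (horizontal axis) for each measured member, with its 95% interval from limma. Filled points passed an adjusted p of 0.05: Hpgds at 4.42, higher in TS2, and Ltc4s at -1.46, higher in TS1, while the 7 open points lay between -0.32 and 0.61.

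Of the 9 members, 5 had no overlap between the arrays of TS1 and those of TS2, namely Hpgds, Ltc4s, Alox5, Lta4h and Ptgdr2. For all genes this share was 58.4%. The leukotriene branch held differences of both signs, with Ltc4s and Lta4h lower and Alox5 higher on the TS2 arrays, and of these only Ltc4s was called.

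By a rule that looked at the shape and size of the change over the 4 arrays, the closest genes were named for each called member. Likeness was the root-mean-square distance between values centred on each gene's own mean and not scaled. Near genes therefore have similar differences by the rule itself. For Hpgds these were Gpr15 (distance 0.125), Rasgrp1 (0.174) and Cdh2 (0.178), which differed between the lines by 4.25, 4.15 and 4.55. For Ltc4s they were Shb (0.0257), Actn1 (0.0452) and Sdhaf3 (0.0459), with differences of -1.49, -1.42 and -1.39. The distances rest on 4 arrays of 2 lines and are a description.

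The other genes of the pathway were taken from a list of 65, of which 61 were measured. In this list the cytosolic phospholipase and both cysteinyl leukotriene receptors were far higher in TS2, and a pair of reductases of the breakdown group, Cbr3 and Ptgr1, was higher in TS1. Of the 61, 16 were called, 8 in each direction, and 45 were not, which is 26.2% called against 13.5% of all genes. The median difference was 0.081 against 0.013 for all genes. The count of 16 fell to 7 when TS1 B was left out, to 8 when TS2 A was, and to 7 when TS2 B was. The share of all genes called fell too, from 13.5% to 7.85%, 4.91% and 5.19% in the same order. Of the 16 genes, 6 stayed called whichever array was left out: Pla2g4a, Pla2g5, Cbr3, Ptgr1, Cysltr1 and Cysltr2. The other 10, each of which differed by less than 1 on the log2 scale, lost their call with at least 1 array left out. All 10 lost it without TS2 A, 9 without TS2 B (not Lpcat3), 9 without TS1 B (not Pla2g6) and 4 without TS1 A (Lpcat3, Ptger1, Ptger4 and Ptges2). Their highest adjusted p over the 4 omissions ran from 0.0999 for Pla2g6 to 0.190 for Ptges2.

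Phospholipases A2 supply the arachidonic acid. Of 15 measured genes of this group, 2 were higher in TS2 and 2 in TS1. Pla2g4a, the cytosolic phospholipase A2 that is selective for arachidonic acid, had a log2 intensity of 4.65 and 4.82 in TS1 and 8.62 and 8.32 in TS2. The lines were separated by 3.73 (SE 0.14, adjusted p = 0.000405 in limma), a 13.3-fold difference. The TS1 values of Pla2g4a lay below the array medians (6.47 to 6.53), so the size of this fold is uncertain. Pla2g5, a secreted phospholipase, had 7.82 and 7.29 in TS1 and 9.41 and 9.38 in TS2 (difference 1.84, SE 0.19, adjusted p = 0.00611). Pla2g6, a calcium-independent phospholipase, was higher in TS1 (difference -0.91, adjusted p = 0.0192), as was the secreted Pla2g12a (difference -0.84, adjusted p = 0.0325). Of 3 acyl transfer genes, which return arachidonic acid to phospholipids, Lpcat3 (difference -0.76, adjusted p = 0.0463) and Mboat7 (-0.74, adjusted p = 0.0293) were higher in TS1.

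The remaining prostanoid synthases held 1 call in each direction among 7 measured genes. Akr1c18, an aldo-keto reductase, was higher in TS2 (difference 0.68, adjusted p = 0.0183 in limma). It was dim in both lines, with 3.78 and 3.69 in TS1 and 4.51 and 4.34 in TS2. The 10th percentile of the arrays ran from 4.01 to 4.08, so the size of this difference is uncertain. Ptges2, a membrane-associated prostaglandin E synthase, was higher in TS1 (-0.50, adjusted p = 0.0389 in limma). The Ptges2 call was also lost after each array was centred on its median (adjusted p = 0.0604). Ptges3, which encodes a cytosolic prostaglandin E synthase that is also a chaperone partner, lay between 12.50 and 12.63 on the 4 arrays and was not called (difference 0.021, adjusted p = 0.922). Ptgds, the other prostaglandin D synthase, which is not related to Hpgds in sequence, had 5.55 and 5.87 in TS1 and 5.81 and 6.19 in TS2 (difference 0.29, adjusted p = 0.356).

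Transport and breakdown held 8 measured genes, with 3 higher in TS1 and 0 higher in TS2. Cbr3, a carbonyl reductase, had 7.86 and 7.52 in TS1 and 5.71 and 5.34 in TS2 (difference -2.16, SE 0.18, adjusted p = 0.0035 in limma). Ptgr1, a reductase that inactivates prostaglandins and leukotriene B4, had 6.46 and 6.49 in TS1 and 4.95 and 5.12 in TS2 (difference -1.45, SE 0.100, adjusted p = 0.00204). Abcc4, an exporter of prostaglandins, differed by -0.80 (adjusted p = 0.0207). Hpgd, which begins the breakdown of prostaglandins, lay between 4.77 and 5.28 on the 4 arrays and was not called (adjusted p = 0.455).

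Among 8 measured prostanoid receptors limma called 2, both with more transcript in TS2. These 2 were the prostaglandin E2 receptors Ptger1 (difference 0.57, adjusted p = 0.0274 in limma) and Ptger4 (difference 0.56, adjusted p = 0.0210), and both calls were lost whichever array was left out (adjusted p from 0.0579 to 0.153 for Ptger1 and from 0.0594 to 0.131 for Ptger4). Ptgdr, the other prostaglandin D2 receptor, had 5.56 and 5.77 in TS1 and 5.67 and 5.95 in TS2 (difference 0.15, adjusted p = 0.552).

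Leukotriene receptors held the largest differences among the receptors listed. Cysltr1, a receptor of cysteinyl leukotrienes, had a log2 intensity of 7.49 and 7.65 in TS1 and 11.26 and 10.70 in TS2. The difference was 3.41 (SE 0.20, adjusted p = 0.00141 in limma), or 10.6-fold. Cysltr2, the second receptor of this kind, had 4.29 on each TS1 array and 7.43 and 6.76 in TS2 (difference 2.81, SE 0.23, adjusted p = 0.00326). The TS1 values of Cysltr2 lay below the array medians (6.47 to 6.53), so the size of its difference is uncertain. Both receptors were thus higher in the line with less Ltc4s transcript. Ltb4r1, a leukotriene B4 receptor, was not called (difference -0.084, adjusted p = 0.801), and with Oxgr1 and Gpr17 it made up the 3 of 5 measured receptors that did not pass.

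Of 9 other measured genes of leukotriene metabolism and export, 1 was called. Ggt5, which trims leukotriene C4 to leukotriene D4, was higher in TS2 (difference 0.54, adjusted p = 0.0269 in limma). Abcc1, an exporter of leukotriene C4, differed by -0.35 (adjusted p = 0.0630), and Mgst2, a relative of Ltc4s that also makes leukotriene C4, by -0.040 (adjusted p = 0.855). Of the 6 other lipoxygenases limma called 0 (1 at an unadjusted p under 0.05), and the largest difference among them was 0.28, for Alox12 (adjusted p = 0.354). Alox8 lay between 11.22 and 11.56 on the 4 arrays.

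**Figure D3:**
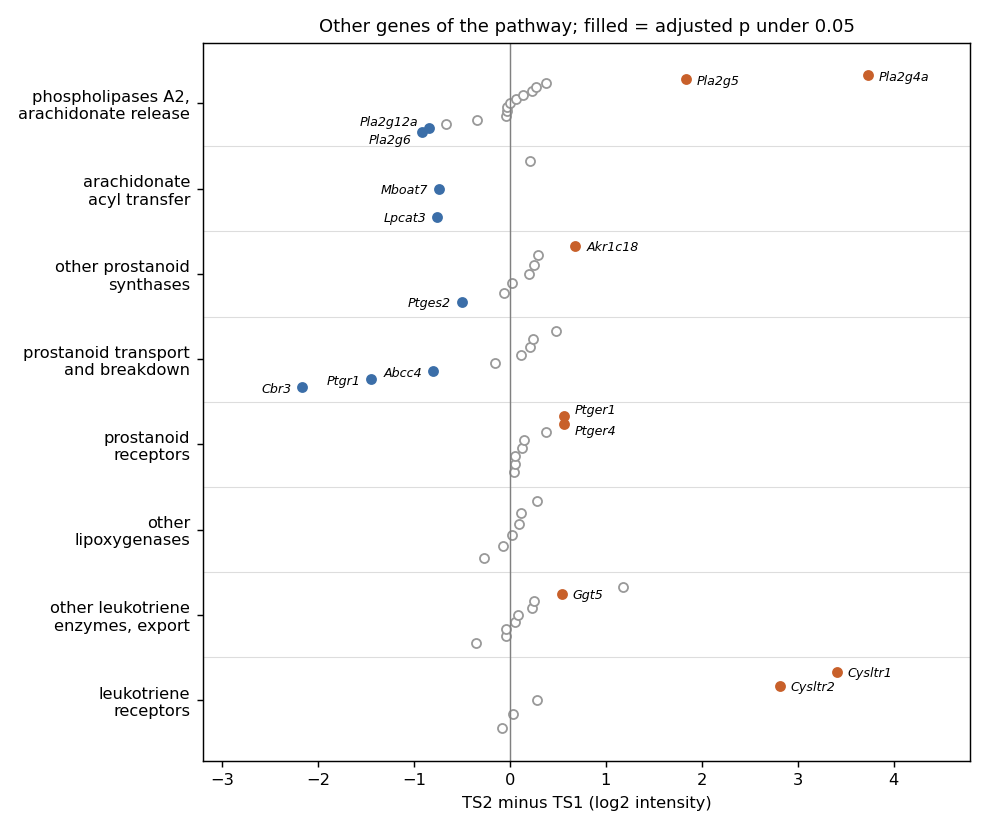
Difference TS2 minus TS1 in log2 intensity (horizontal axis) of the 61 other measured genes of the pathway, 1 point per gene, grouped by role. Filled and named points passed an adjusted p of 0.05, blue for higher in TS1 and orange for higher in TS2: Pla2g4a, Cysltr1 and Cysltr2 lay farthest to the right at 3.73, 3.41 and 2.81, and Cbr3 farthest to the left at -2.16.

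Markers of cell types that are known to make these lipids were set beside the members. Of 12 mast cell markers, all measured, 2 were higher in TS1 and 0 in TS2, which is 16.7% called against 13.5% of all genes. These were Kit and Gata2. Kit, the stem cell factor receptor, had 7.20 and 7.40 in TS1 against 5.48 and 5.32 in TS2 (adjusted p = 0.00153 in limma). Gata2 had 11.22 and 11.51 in TS1 against 6.52 and 6.91 in TS2 (adjusted p = 0.000411). Fcer1a, the alpha chain of the high-affinity IgE receptor, lay between 12.69 and 13.08 on the 4 arrays, while Ms4a2, its beta chain, lay between 3.99 and 4.22. Cpa3, a mast cell protease, lay between 7.95 and 9.13. The chymase Mcpt4 had 5.45 and 5.33 in TS1 and 6.60 and 10.10 in TS2, without overlap (difference 2.96, adjusted p = 0.158). Cma1, also a chymase, had 5.49 and 4.73 in TS1 and 5.35 and 8.61 in TS2 (difference 1.87, adjusted p = 0.323). The summed log2 intensity of the 12 markers was 81.9 to 82.1 in TS1 and 76.9 to 83.0 in TS2.

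The basophil and eosinophil list had 7 measured genes, of which limma called 0 (3 at an unadjusted p under 0.05). Its sum was 34.3 to 36.6 in TS1 and 40.3 to 43.3 in TS2. Mcpt8, with 5.75 and 4.55 in TS1 and 7.89 and 11.64 in TS2, made up most of that gap. Its difference of 4.61 was not called (adjusted p = 0.0773 in limma). Ccr3, Cd200r3 and Prss34 were higher in TS2 without overlap, by 0.68, 0.60 and 0.45. The arrays of the lines overlapped for Epx, Prg2 and Siglecf. The T helper 2 and group 2 innate lymphoid list had 9 measured genes of 11. TS2 had the higher level of 3 of them and TS1 of 0, which is 33.3% called against 13.5% of all genes. The sums were 67.5 to 70.1 in TS1 and 75.0 to 75.7 in TS2. The 3 called genes were Gata3, Ccr8 and Klrg1. The other 6 were not called. Of these, Il13 and Il5 differed by 1.21 and 0.15. Ccr4, Rora, Il4 and Il17rb went the other way, by -0.59, -0.58, -0.13 and -0.071. Of 12 measured T cell markers, 3 were higher in TS2 and 1 in TS1 (33.3% called). Their sums were 73.0 to 77.5 in TS1 and 89.4 to 90.6 in TS2. Cd3e, Cd247 and Zap70 were higher in TS2, by 6.21, 2.83 and 2.27. Lat was higher in TS1 (difference -2.05, adjusted p = 0.00353 in limma). Cd3g, at 10.52 on TS1 A and 6.07 on TS1 B, made up most of the gap between the TS1 sums. Cd4, which the labels name, lay between 5.15 and 5.38 on the 4 arrays, below the array medians. Macrophage markers (8 measured, 12.5% called) had 1 gene higher in TS1, Cd68, with Csf1r between 5.23 and 5.45. Of 4 measured platelet markers (25% called), Itga2b was higher in TS1 and Pf4 lay between 3.90 and 3.93. Limma called 0 of 3 measured B cell markers (1 at an unadjusted p under 0.05). No marker is at 0 in these values, and the part of these differences in those of Hpgds and Ltc4s was not tested. Apart from Gata3, Kit, Cpa3, Cd3e, Csf1r and Pf4, the markers in this and the preceding paragraph are named after their values were seen.

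**Figure D4:**
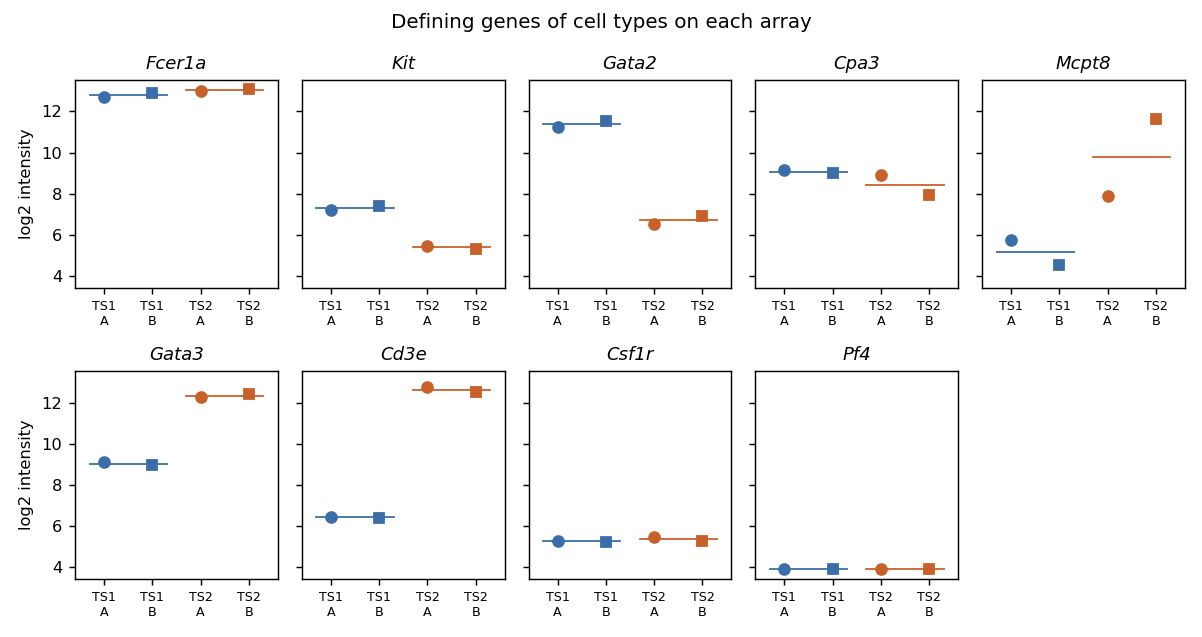
Log2 intensity (vertical axis, shared by all panels) of 9 marker genes on each array (horizontal axis), with circles for duplicate A, squares for duplicate B and lines for the mean of a line's 2 arrays. Fcer1a was near 13 in both lines, Kit and Gata2 were higher in TS1, Gata3 and Cd3e were higher in TS2, and Mcpt8 lay at 7.89 on TS2 A and 11.64 on TS2 B.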

How the data were processed

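The authors deposited linear intensities for each probe set, made with RMA in Affymetrix Expression Console per the submitters' processing notes. No version, filter or build is given in the sources used here. RMA removes shifts that most genes of an array share. Here log2 was taken, with 0 missing or non-positive values. Of 35556 probe sets, 21789 had 1 gene symbol in the platform annotation, 1621 had several and 12146 none. For 21698 of the single-gene probe sets the gene identifier was found in RefSeq (GRCm38.p6). These took RefSeq's symbol, whether or not it differed. The brightest single-gene probe set by the mean of the 4 arrays stood for each gene.

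All 19938 genes entered 1 fit in limma 3.58.1 (lmFit and eBayes, R 4.3.3, data.table version 1.17.8) with the line as factor, 2 residual degrees of freedom and 3.03 prior ones. Calls needed a Benjamini-Hochberg adjusted p under 0.05. On simulated data with 200 of 19938 genes changed (20 simulations), the fit recovered 64.8% of genes changed by 1 on the log2 scale. It recovered 95.3% of those changed by 2, with 7.35 false calls on average. The simulated noise was independent and drawn from limma's own fitted prior. In the data a larger share of genes, 13.5%, was called. These rates therefore check the code and need not hold for the data. Alternatives were an array left out, a replicate block, other priors, scalings, filters, probe set rules and thresholds.

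The members, pathway and marker lists and tests were chosen with earlier results of these data known. The text names all members, all called pathway genes with some that were not called, 3 genes nearest to each called member, and the markers Gata3, Kit, Cpa3, Cd3e, Csf1r, Il1rl1 (not analysed here) and Pf4. Other markers in the text are named after their values were seen. No set test was run. Pearson's r over genes was 0.993 between the TS1 duplicates, 0.995 between the TS2 duplicates and 0.961 to 0.968 between lines.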

Additional observations from a re-analysis of the deposited data

How the results depend on the processing

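Hpgds and Ltc4s were called, and no other member, under every alternative run except 4. All 9 members and 61 pathway genes were tested in each, except that 7 and 50 remained with the dimmest 30% of probe sets left out, and 3 and 26 with the dimmest 50% left out. Without moderated variances limma's linear model called 0 of all 19938 genes (4156 at an unadjusted p under 0.05), and so 0 members and 0 pathway genes (3 and 18 unadjusted). Against a 2-fold minimum (treat) 1 member, Hpgds, and 4 pathway genes passed. With an intensity trend in the prior Lta4h joined, which made 3. It also joined with the dimmest 50% left out, where all 3 remaining members and 28.4% of all remaining genes were called. The 16 called pathway genes became 8 with all probe sets in the fit and 6 at an adjusted p under 0.01, and ran from 7 to 13 with an array left out, where fewer residual degrees of freedom remain. With the replicate block (the letters A and B) 9 pathway genes and 2 members were called. The letters are not shown to pair the arrays: over genes, the deviations of TS1 A and TS2 A from their line means correlated at -0.029. The difference of Hpgds ran from 4.20 to 4.63 and that of Ltc4s from -1.53 to -1.39 over 16 alternatives each, and no called difference changed sign. The number of arrays limits all values, and without detection calls the size of a difference is uncertain where a gene is dim in a line.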

Other observations

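Some listed genes differed more between the duplicates of a line than the members did, in both lines and in both directions. The widest gap among the listed genes was in TS1, at Cd3g, which encodes a CD3 subunit, with a log2 intensity of 10.52 on TS1 A and 6.07 on TS1 B. Mcpt8, a protease of basophils, had a log2 intensity of 7.89 on TS2 A and 11.64 on TS2 B, and of 5.75 on TS1 A and 4.55 on TS1 B. Mcpt4 and Cma1, mast cell chymases, were also higher on TS2 B than on TS2 A, by 3.50 and 3.26. Cd28, a co-stimulatory receptor, and Rora, a nuclear receptor, were lower on TS2 B than on TS2 A, with B minus A at -2.19 and -1.88. Among pathway genes Mgst1, a microsomal glutathione transferase, was higher on TS2 B by 1.28 and Slco3a1, an organic anion transporter, by 1.01. Hpgds and Alox5 were lower on TS2 B than on TS2 A, with B minus A at -0.44 and -0.48. In TS1, B minus A was -1.21 for Mcpt8, -1.17 for Il13, a T helper 2 cytokine, -0.12 for Mcpt4 and 0.11 for Hpgds. These genes are named after their values were seen, and no test was made of differences within a line.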
